A study of Homo sapiens with 6 samples.

Results

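Transcripts of 34 genes for protein folding and disposal in the endoplasmic reticulum (ER) were followed in U251 glioma cells, an established human line of astrocytic origin, with and without 6-shogaol. The genes were chosen by symbol from the deposited expression table, which lists 60612 genes, and all 34 were found and tested. They encode ER chaperones and disulfide enzymes, the stress sensors ERN1 and ATF6 with the transcription factor XBP1, the machinery of ER-associated degradation (ERAD), and parts of the translocon. The control group was wild-type U251 cells without the compound, and the treated group was wild-type U251 cells with 6-shogaol at 60 "μm", read here as micromolar. Both were sampled at 24 h, with 3 libraries in each group. 6-shogaol is a pungent, thiol-reactive constituent of dried ginger. The labels do not say whether the controls received a solvent, and no label ties the replicates to separate cultures. The p-values therefore rest on the spread among 6 libraries, and that spread may be technical only.

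The ER folds secreted and membrane proteins. HSPA5 (BiP), an HSP70 chaperone, holds unfolded chains, the lectins calnexin and calreticulin hold glycoproteins, and protein disulfide isomerases, recharged by ERO1 oxidases, form their disulfide bonds. When unfolded proteins build up, the sensors IRE1 (gene ERN1), ATF6 and PERK (gene EIF2AK3) start the unfolded protein response, in which XBP1 and cleaved ATF6 raise chaperone and ERAD genes and PERK acts through ATF4. In ERAD, EDEM proteins and lectins mark misfolded glycoproteins, the SEL1L-SYVN1 ligase and derlins pass them through the membrane, and the ATPase VCP pulls them out for the proteasome.

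Total counts per library ran from 43516840 to 60018999. The second principal component of the tested genes had 6-shogaol replicate 1 at -61.8 and the other libraries between -22.6 and 33.9. That library was the highest or the lowest of its group for 32 of the 34 genes, against 21 for 6-shogaol replicate 2 and 15 for replicate 3. Control replicates 1, 2 and 3 were so for 24, 18 and 26 genes. Counts of calls are therefore also given without 6-shogaol replicate 1. Of the glial and glioma markers, VIM, NES and SOX2 stood at 1126, 116 and 105 FPKM in controls (fragments scaled for transcript length and library total). GFAP stood at 2.03, S100B at 0.360, SLC1A3 at 1.08, AQP4 at 0.0534, ALDH1L1 at 0.0020 and OLIG2 at 0.0025 FPKM. The leukocyte, endothelial and epithelial lists each summed to at most 0.733 FPKM in any library, and of the neuronal markers SYT1 stood at 6.56 FPKM in controls, SNAP25 at 0.676 to 1.02 and RBFOX3 at 0.0366 to 0.0836 FPKM over all libraries.

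Sites for the factors of the unfolded protein response are shown first, because they are what several of these genes share beyond their function. The ER stress response element (ERSE, the letters CCAAT, 9 free bases and CCACG) is a site at which ATF6 acts with the general factor NF-Y, and ERSE-II (ATTGG, 1 free base and CCACG) is a related site. Both were searched on both strands in RefSeq promoter windows of build GRCh38.p14, which run from 250 bases before to 50 bases after a gene's start. The table held 30 of the 34 genes (the others were PDIA3, DERL1, DERL3 and UFD1). An exact ERSE was found for 8 of these 30 (26.7%) and in 25 of all 27305 gene symbols in the table (0.0916%). Of those 25, 17 are not among the 30. An exact ERSE-II was found for 3 of 30 (10.0%) and in 19 of all symbols (0.0696%), 16 of them not among the 30. The list holds chaperone and ERAD genes that this response is known to raise, so the higher shares were built in and test nothing. The match is a description of the list and shows no binding. The ERSE sites are printed in the direction of the motif, with the fixed letters in capitals and the free spacer in lower case:
HSPA5, chr9:125241391-125241409, minus strand: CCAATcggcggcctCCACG
CANX, chr5:179698778-179698796, plus strand: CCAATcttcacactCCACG
XBP1, chr22:28800603-28800621, minus strand: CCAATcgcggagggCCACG
PDIA6, chr2:10812853-10812871, minus strand: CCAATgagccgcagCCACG
ERO1B, chr1:236282183-236282201, plus strand: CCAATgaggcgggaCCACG
HSP90B1, chr12:103930216-103930234, plus strand: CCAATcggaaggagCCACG
HSP90B1, chr12:103930321-103930339, minus strand: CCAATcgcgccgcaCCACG
CALR, chr19:12938384-12938402, minus strand: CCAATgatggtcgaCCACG
CRELD2, chr22:49918554-49918572, minus strand: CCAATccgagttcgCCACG

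The 4 ERSE-II sites, in 3 genes, are printed the same way:
HERPUD1, chr16:56932025-56932035, plus strand: ATTGGgCCACG
HYOU1, chr11:119057380-119057390, plus strand: ATTGGaCCACG
HYOU1, chr11:119057274-119057284, plus strand: ATTGGaCCACG
SDF2L1, chr22:21642114-21642124, minus strand: ATTGGtCCACG

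The XBP1-type element UPRE (TGACGTGG) was found for HYOU1, where it overlaps an ERSE-II, and for VCP. It occurs in 0.927% of all symbols. The ATF4-type element CARE (TGATGCAA) was found for HERPUD1 alone among the 30 genes, and occurs in 1.08% of all symbols. The 250 bases before the starts of HSPA5 and HERPUD1 show both layouts, with every match of the searched letters in capitals (an ERSE in HSPA5, and a CARE on the opposite strand followed by an ERSE-II in HERPUD1):
HSPA5, chr9:125241344-125241593, minus strand: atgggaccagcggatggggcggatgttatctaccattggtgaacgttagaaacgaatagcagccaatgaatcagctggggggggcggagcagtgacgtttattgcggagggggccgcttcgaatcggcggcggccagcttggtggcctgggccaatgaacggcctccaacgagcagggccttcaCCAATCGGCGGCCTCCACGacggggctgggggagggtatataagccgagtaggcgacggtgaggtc
HERPUD1, chr16:56931892-56932141, plus strand: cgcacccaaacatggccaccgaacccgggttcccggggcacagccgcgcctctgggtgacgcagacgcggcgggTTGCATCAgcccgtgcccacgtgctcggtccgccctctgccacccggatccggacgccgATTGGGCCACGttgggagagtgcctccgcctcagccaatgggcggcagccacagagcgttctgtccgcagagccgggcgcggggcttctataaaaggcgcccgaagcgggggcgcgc

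Of the 34 genes, 4 were higher with 6-shogaol and 0 were lower by edgeR's quasi-likelihood test, with p-values adjusted by Benjamini-Hochberg over all 19279 genes tested and a threshold of 0.05. The 4 were HSPA5, the lectin chaperone CANX, the oxidase ERO1A and the ERAD factor EDEM1, and their changes were small, from 1.27-fold to 1.40-fold. They are 11.8% of the genes, against 1.67% of all genes tested called higher and 1.71% called lower. Among all tested genes averaging 5 CPM or more (counts scaled to library size), a level that 33 of the 34 genes reach, 2.52% were called higher and 2.56% lower. At an unadjusted p under 0.05, 12 of the genes were higher and 2 lower, against 10.4% and 9.95% of all genes. DESeq2 called 6 higher and 1 lower. Over the whole table it also called more genes than edgeR, as given in the closing section. Its count for the 34 genes is therefore not a gain particular to them. The log2 fold change was above 0 for 25 of the 34 genes, with a median of 0.14, against 9639 of the 19279 genes tested, whose median was 0.00. It ran from -0.73 for SSR1 to 0.49 for ERO1A.

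**Figure D1:**
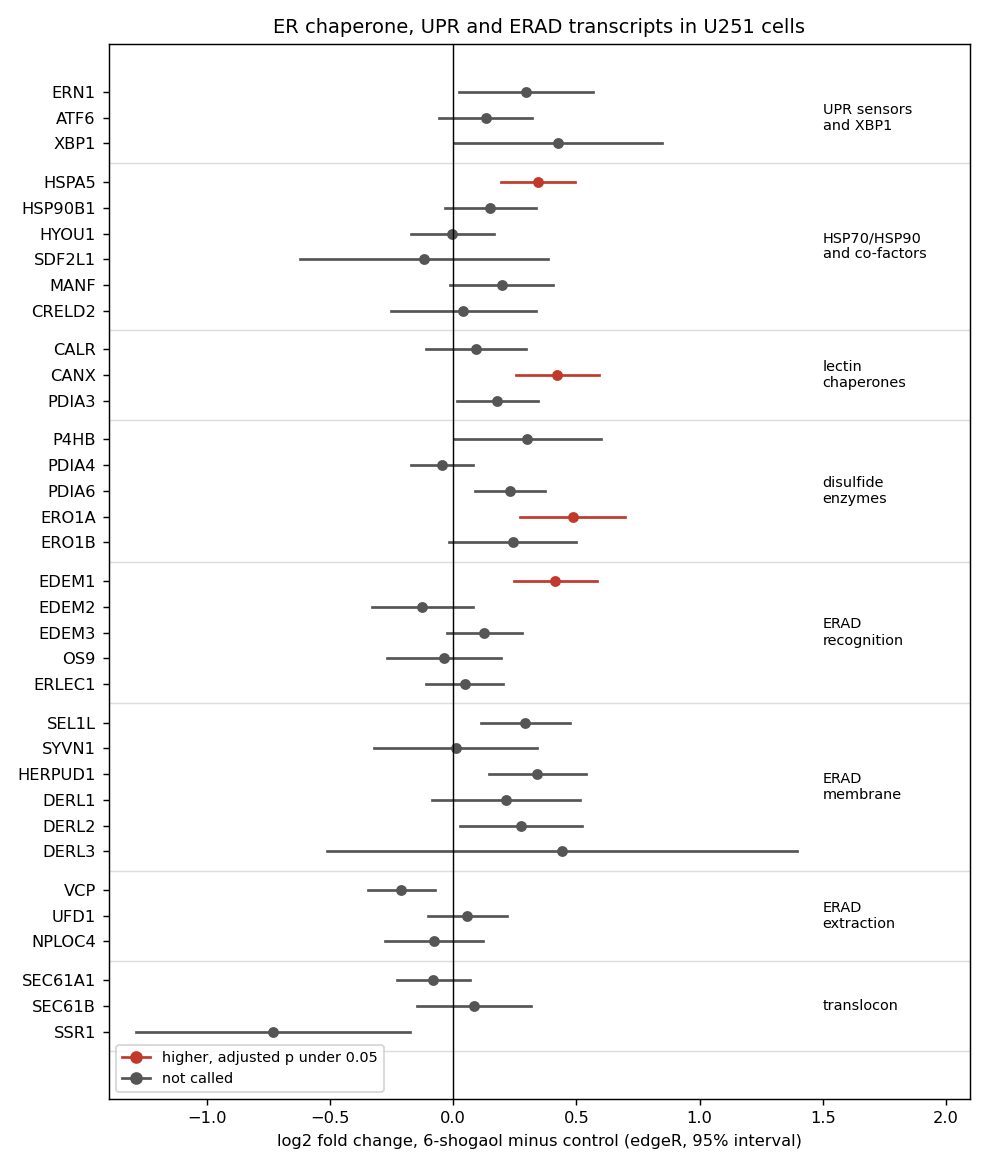
The plot gives the log2 fold change (6-shogaol minus control, x axis) of each of the 34 genes, grouped by role, with edgeR's 95% interval as a line. The 4 genes called higher (red) lie between 0.34 and 0.49, and SSR1 has the lowest value at -0.73 with a wide interval.

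The calls are sensitive to which libraries enter. Without 6-shogaol replicate 1, 6 of the genes were called higher and 1 lower. Without control replicate 3, 1 was called higher, and without any of the other 4 libraries 0 were called, although the values moved little. Without 6-shogaol replicate 1, the additional calls were HERPUD1, SEL1L and VCP. The log2 fold changes of the 4 called genes stayed between 0.31 and 0.55 in all 6 of those fits. The number of calls over all genes also moved from fit to fit, as given in the closing section. Changes in the number of calls between fits were therefore not confined to these genes.

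**Figure D2:**
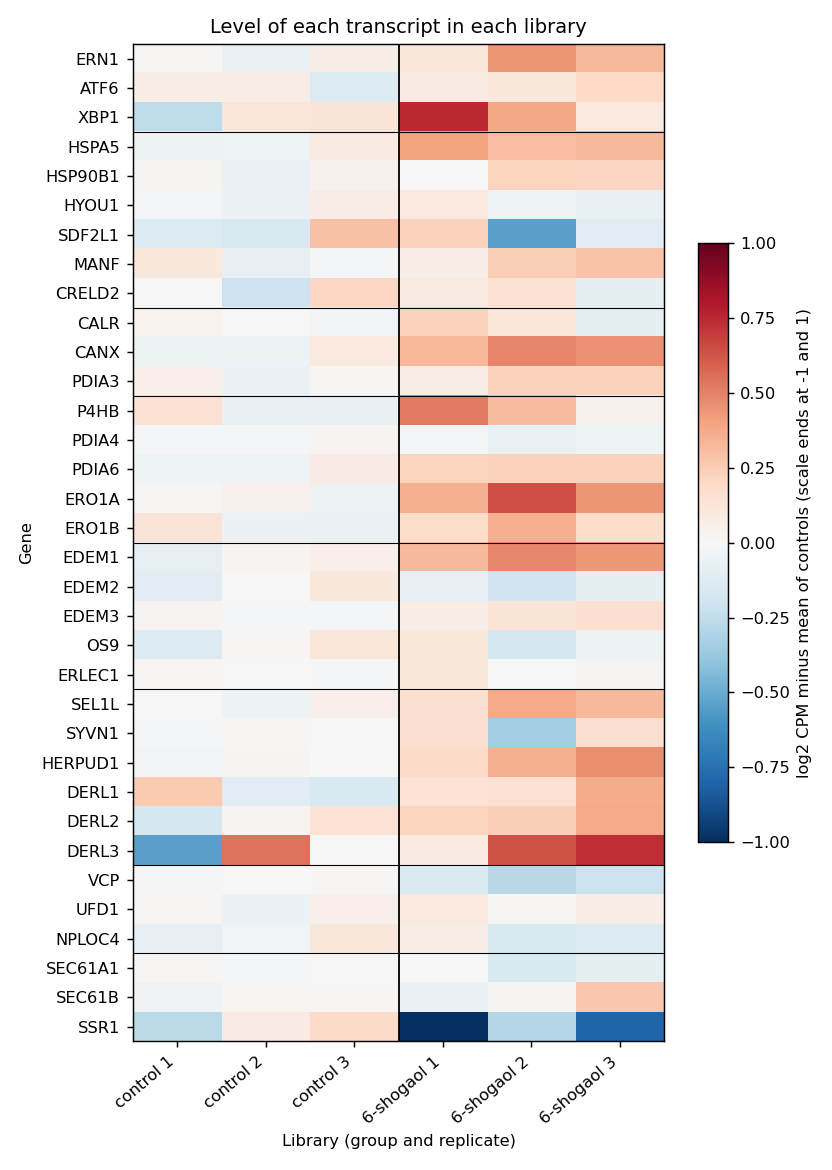
Each cell of the heat map is the log2 CPM of a gene (rows, by role) in a library (columns), minus the mean of the 3 controls, on a colour scale that ends at -1 and 1. HSPA5, CANX, ERO1A and EDEM1 are red in all 3 treated libraries, while XBP1 and P4HB are strongest in 6-shogaol replicate 1.

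Neither stress sensor passed the test, and nor did XBP1. ERN1 encodes the kinase and ribonuclease IRE1. Its level was 13.8, 13.1 and 14.3 CPM in the control libraries (here and below in the order of replicates 1, 2 and 3), against 14.7, 18.6 and 17.2 CPM with 6-shogaol. The treated libraries all lay above the controls, the nearest by a narrow margin (log2 fold change 0.30, 95% interval 0.02 to 0.57, edgeR adjusted p = 0.212). ATF6, the membrane-bound factor that is released by cleavage, went from 97.6, 98.7 and 85.4 to 99.7, 101 and 108 CPM (log2 fold change 0.13, 95% interval -0.06 to 0.32, edgeR adjusted p = 0.421). Its groups did not overlap, but control replicates 1 and 2 lay close under the treated libraries. XBP1, the factor whose mRNA IRE1 splices, went from 59.9, 77.8 and 78.2 to 119.9, 93.5 and 76.5 CPM. 6-shogaol replicate 1 was the highest and replicate 3 lay within the controls (log2 fold change 0.43, edgeR adjusted p = 0.241). Counts per gene do not separate spliced from unspliced XBP1 mRNA, nor do they report cleavage of ATF6.

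HSPA5, the ER HSP70 and the classic reporter of the unfolded protein response (ENSG00000044574, chromosome 9, 125234853 to 125241343 as the deposited table gives it), rose by 26.8%. Its level was 681, 683 and 749.5 CPM in the controls and 929, 872 and 881 CPM with 6-shogaol. The lowest treated library lay 122 CPM above the highest control. The log2 fold change was 0.34 (SE 0.06, 95% interval 0.19 to 0.49, edgeR adjusted p = 0.0393). None of the other 5 chaperones and co-factors of this group passed the test. HSP90B1 (GRP94), the ER HSP90, had 0.15 on the log2 scale (95% interval -0.03 to 0.33). MANF, whose product binds BiP and is secreted under stress, had 0.20 (95% interval -0.01 to 0.40). HYOU1, the large HSP70-like exchange factor of BiP, was at 333, 324 and 354 CPM in controls and 361, 327 and 320.04 CPM in treated libraries, with a 95% interval of -0.17 to 0.16 on the log2 scale. SDF2L1 and CRELD2, both known as strongly stress-inducible, had values of -0.12 and 0.04, with overlapping groups.

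CANX encodes calnexin, the membrane-anchored lectin chaperone (ENSG00000127022, chromosome 5, 179678628 to 179730925), and rose by 34.1%. Controls held 1685, 1686 and 1870.1 CPM, and treated libraries 2191, 2446 and 2389 CPM, with no overlap. The log2 fold change was 0.42 (SE 0.07, 95% interval 0.26 to 0.59, edgeR adjusted p = 0.0301). Its soluble relative CALR, calreticulin, went from 1118, 1090.1 and 1069.7 to 1278, 1187 and 1025 CPM. The treated CALR libraries lay on both sides of the controls (log2 fold change 0.09, 95% interval -0.11 to 0.29, edgeR adjusted p = 0.617). PDIA3 (ERp57), the disulfide isomerase that works with both lectins, had a log2 fold change of 0.18 and did not pass (edgeR adjusted p = 0.213). It shares 18.9% of its exon length with genes on the opposite strand. Whether counting used strand is not given, so reads from such neighbours cannot be told apart.

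ERO1A, the oxidase that recharges protein disulfide isomerase (ENSG00000197930, chromosome 14, 52639915 to 52695900), had the largest log2 fold change of the 34 genes. Controls held 59.2, 60.2 and 56.4 CPM and treated libraries 74.9, 91.6 and 79.7 CPM. The lowest treated library lay above the highest control. The rise was 1.40-fold (log2 fold change 0.49, SE 0.09, 95% interval 0.27 to 0.70, edgeR adjusted p = 0.0397). Its relative ERO1B went from 15.2, 13.3 and 13.3 to 15.7, 17.9 and 15.7 CPM, with a log2 fold change of 0.24 (edgeR adjusted p = 0.273). Among the isomerases, P4HB (PDI) had 0.30 and PDIA6 (P5) had 0.23, and neither passed (edgeR adjusted p = 0.242 and 0.0930). PDIA6 was at 247, 247 and 269 CPM in controls and at 297, 299 and 299 CPM with 6-shogaol, with no overlap, and 25.2% of its exon length is shared with ATP6V1C2 on the opposite strand. PDIA4 (ERp72) went the other way by little, from 422, 423 and 436 to 420.4, 407 and 414 CPM, and its 95% interval was -0.17 to 0.08.

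EDEM1, which takes misfolded glycoproteins out of the folding cycle (ENSG00000134109, chromosome 3, 5187646 to 5219958), rose by 33.3%. Controls stood at 122, 132 and 134 CPM and treated libraries at 162, 180.3 and 175 CPM, with a gap of 28.1 CPM between the groups. The log2 fold change was 0.41 (SE 0.07, edgeR adjusted p = 0.0336), and 9.66% of its exon length is shared with a noncoding gene on the opposite strand. Its relatives did not pass: EDEM2 had -0.13 (95% interval -0.33 to 0.08) and EDEM3 had 0.13 (95% interval -0.03 to 0.28). The lectins OS9 and ERLEC1, which hand glycoproteins to the ligase, had values of -0.04 and 0.05.

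In the membrane complex of ERAD, 0 of 6 genes passed. All 6 values were above 0, but that of SYVN1 was 0.01 (95% interval -0.32 to 0.34). The SYVN1 value changed sign in 4 of 15 alternatives. HERPUD1, a scaffold of the ligase, went from 89.7, 93.3 and 91.4 to 104, 117 and 126 CPM with no overlap (log2 fold change 0.34, edgeR adjusted p = 0.0768). SEL1L, the adaptor of the ligase, went from 111, 107 and 115 to 124, 144 and 139 CPM, also with no overlap (log2 fold change 0.29, edgeR adjusted p = 0.0923). Both were called in DESeq2 and in edgeR without 6-shogaol replicate 1. SYVN1 (HRD1), the ligase itself, was at 46.2, 47.4 and 46.9 CPM in controls and at 52.4, 36.7 and 52.4 CPM with 6-shogaol, where replicate 2 lay below and the other libraries above all controls. The derlins, channel-like proteins, had 0.21 for DERL1 and 0.28 for DERL2. DERL3 held 0.387, 0.821 and 0.567 CPM in controls and 0.602, 0.877 and 0.942 CPM in treated libraries (log2 fold change 0.44, 95% interval -0.51 to 1.40), and 77.0% of its exon length is shared with SMARCB1.

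VCP (p97), the ATPase that extracts ERAD substrates, had a negative value. It was at 632, 634 and 642 CPM in controls and at 576, 526 and 547 CPM with 6-shogaol, with every treated library below every control. The log2 fold change was -0.21 (95% interval -0.35 to -0.07), which did not pass with all 6 libraries (edgeR adjusted p = 0.103). Without 6-shogaol replicate 1 it was called, at -0.25. Its co-factors UFD1 and NPLOC4 had 0.06 and -0.08, with overlapping groups.

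None of the 3 translocon genes passed edgeR's test. SSR1, a subunit of the translocon-associated protein complex, had the lowest value of the 34, going from 100.1, 128 and 138 to 51.8, 99.1 and 69.5 CPM. The treated libraries were spread widely, and the highest of them lay just under the lowest control (log2 fold change -0.73, SE 0.24, edgeR adjusted p = 0.145). DESeq2 called SSR1 lower, and leaving out 1 library moved its value between -1.01 and -0.53. SEC61A1 and SEC61B, which encode subunits of the SEC61 complex, had -0.08 and 0.09, with overlapping groups.

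CPM groups did not overlap for 16 of the 34 genes, 13 higher and 3 lower with 6-shogaol. That is 38.2% and 8.82% of the genes, against 14.0% and 13.9% of all genes tested, or 18.0% and 16.3% of those with a mean of at least 5 CPM. Summed over the 34 genes, FPKM made up 0.563%, 0.554% and 0.597% of all FPKM in control replicates 1, 2 and 3. In the treated libraries the share was 0.718%, 0.646% and 0.642%, with no test made. The sum is weighted to the most abundant genes, CALR, CANX and HSPA5, of which CALR was not called. It does not show a rise of each gene.

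Partner genes were also compared within each library, as log2 ratios of their CPM, for 6 pairs chosen after the values were seen. The ratio of EDEM1 to EDEM2 was 1.89 in controls and 2.43 in treated libraries (means), EDEM1 to EDEM3 went from 1.13 to 1.42, ERO1A to ERO1B from 2.08 to 2.32 and HSPA5 to HSP90B1 from 0.07 to 0.26. In these 4 pairs the groups did not overlap. CANX to CALR, from 0.68 to 1.01, and SEL1L to SYVN1, from 1.24 to 1.54, overlapped between groups. A two-sided exact permutation test gave p = 0.1 for each of the first 4 pairs, 0.2 for CANX to CALR and 0.3 for SEL1L to SYVN1 (0.15 to 0.3 after Benjamini-Hochberg adjustment over 6 pairs). The smallest p that 3 against 3 libraries allow is 0.1, so no pair could pass, and because the pairs were chosen with the values in view these p-values support nothing.

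Per transcript length, the lectin chaperones and HSPA5 were the most abundant of the 34. In controls CALR stood at 338 FPKM, CANX at 211, HSPA5 at 151, P4HB at 131 and HSP90B1 at 120. The stress sensors were among the lower ones, ATF6 at 10.0 FPKM and ERN1 at 1.06. DERL3 was the lowest at 0.123 FPKM. Of the 33 pairs of neighbours in this order, 16 had control ranges that overlapped, among them P4HB with HSP90B1 and VCP with PDIA4. Of the called genes, EDEM1 stood at 16.1 FPKM in controls and ERO1A at 6.52 FPKM, so the 4 called genes spanned abundant and modest transcripts.

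**Figure D3:**
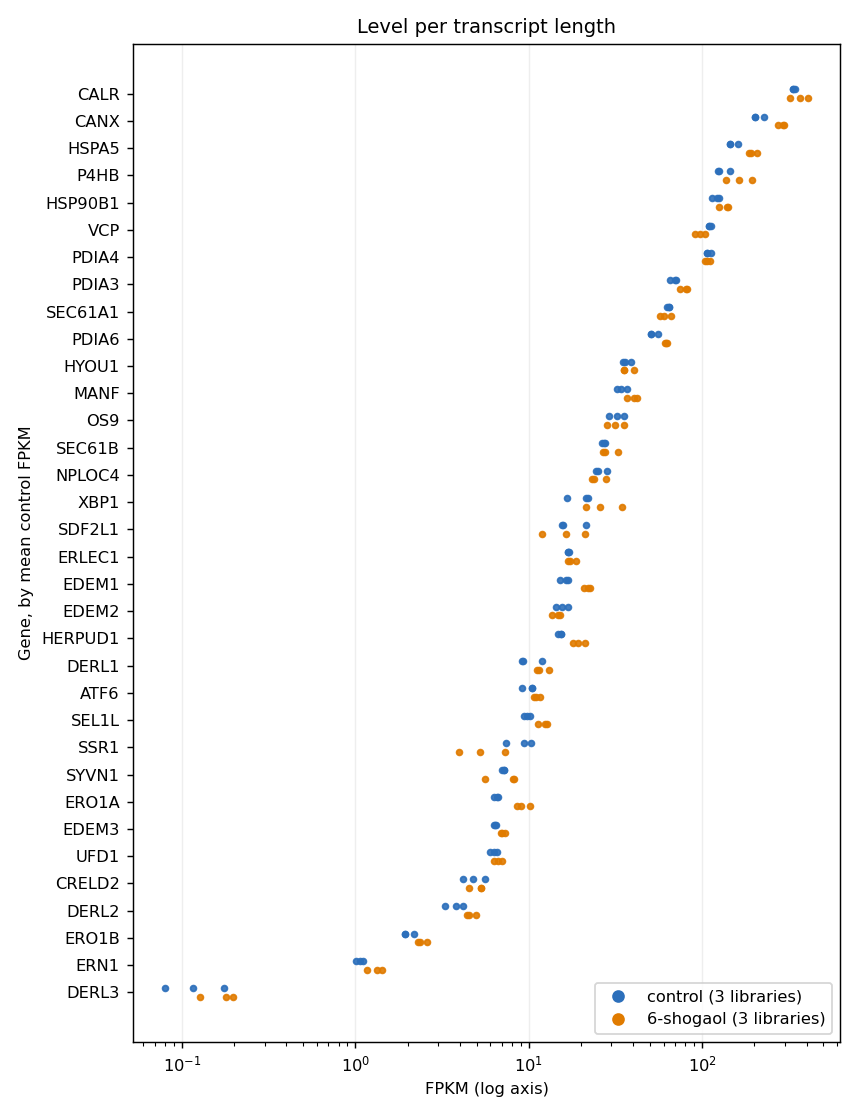
FPKM of each of the 34 genes in each library is shown on a log axis, with genes ordered by their mean in controls, blue points for the 3 controls and orange points for the 3 treated libraries. Levels run from 0.123 FPKM for DERL3 to 338 FPKM for CALR in controls, and the orange points of CANX, HSPA5, EDEM1 and ERO1A lie to the right of the blue ones.

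The promoter matches can be set beside these values. Of the 11 genes with a site printed above, 2 were called higher (HSPA5 and CANX), and the log2 fold changes ran from -0.12 for SDF2L1 to 0.43 for XBP1 with a median of 0.23. Of the 19 genes whose windows held neither, 2 were called higher (EDEM1 and ERO1A), and values ran from -0.73 to 0.49 with a median of 0.09. No test was made between these sets, and a missing match says only that these letters are not in the window.

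Other genes of the same pathways were taken from lists that exclude the 34. Of 128 tested, 8 were higher (6.25%) and 1 was lower (0.781%), against 1.67% and 1.71% of all genes tested. Of the 8, 5 are in the PERK-ATF4 list. Each other list had at most 1 call, too few to set against the share over all genes. DESeq2 called more genes over the whole table, so its counts for the lists below cannot be set directly against edgeR's. Without 6-shogaol replicate 1, 13 of these genes were higher and 2 lower, and calls over all genes also moved when 1 library was left out. Of 13 ER HSP40 proteins, exchange factors and relatives, 1 rose. That gene, CDNF, a relative of MANF, was at 1.35, 1.45 and 1.37 CPM in controls and at 3.24, 3.39 and 2.53 CPM with 6-shogaol (log2 fold change 1.13 with SE 0.21, edgeR adjusted p = 0.0372), and it lost its call in each of the 6 fits without 1 library. In the same list the co-chaperone DNAJB9 (ERdj4) had 0.41 and the BiP-modifying enzyme FICD 0.30, and neither passed in edgeR. DNAJB9 was called in DESeq2, where the list had 2 higher, and in limma on log2(FPKM + 1), where it had 3. Of 15 tested genes of the wider disulfide isomerase family and thiol redox, edgeR called 0 and DESeq2 called 1 higher. At an unadjusted p under 0.05 in edgeR, 1 was higher and 1 lower, against 10.4% and 9.95% of all genes. Without 6-shogaol replicate 1, edgeR called 2 higher. TMX3, a transmembrane isomerase that was called in both of these fits, had 0.55 with all libraries, and GPX8, a peroxidase of the ER, had -0.64.

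Of 13 genes of glycan trimming and glycoprotein quality control, 1 rose, the cargo receptor LMAN1 (ERGIC-53), which carries glycoproteins out of the ER. It went from 79.4, 77.1 and 74.4 to 101, 108 and 110.3 CPM with no overlap (log2 fold change 0.47, SE 0.07, edgeR adjusted p = 0.0200). UGGT2, a folding sensor of glycoproteins, had 0.40 and did not pass in edgeR with all libraries. It was called in DESeq2, where the list had 3 higher, and without 6-shogaol replicate 1, where it had 2. Of 24 further ERAD ligases, conjugating enzymes and adaptors, edgeR called 0, as did DESeq2. At an unadjusted p under 0.05 in edgeR, 5 were higher and 2 lower, against 10.4% and 9.95% of all genes. RNF185 had 1.03 with a wide spread among controls (19.2 ± 18.0 CPM, mean ± SD, n = 3). Leaving out 1 library moved it between 0.64 and 2.14, and without control replicate 1 it was called higher, the 1 call of the list in that fit. Of 22 further translocon, signal recognition and signal peptidase genes 1 rose, HSPA13, an HSP70-like protein of the ER (log2 fold change 0.37, edgeR adjusted p = 0.0424), while the signal peptidase subunit SPCS3 had 0.45 and did not pass in edgeR with all libraries. SPCS3 was called in DESeq2 and without 6-shogaol replicate 1, and in each of these fits the list had 2 higher. Of 12 oligosaccharyltransferase genes, edgeR and DESeq2 called 0. At an unadjusted p under 0.05 in edgeR, 2 were higher and 1 lower, against the same shares of all genes. OSTC had 0.29 and MAGT1 -0.37.

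**Figure D4:**
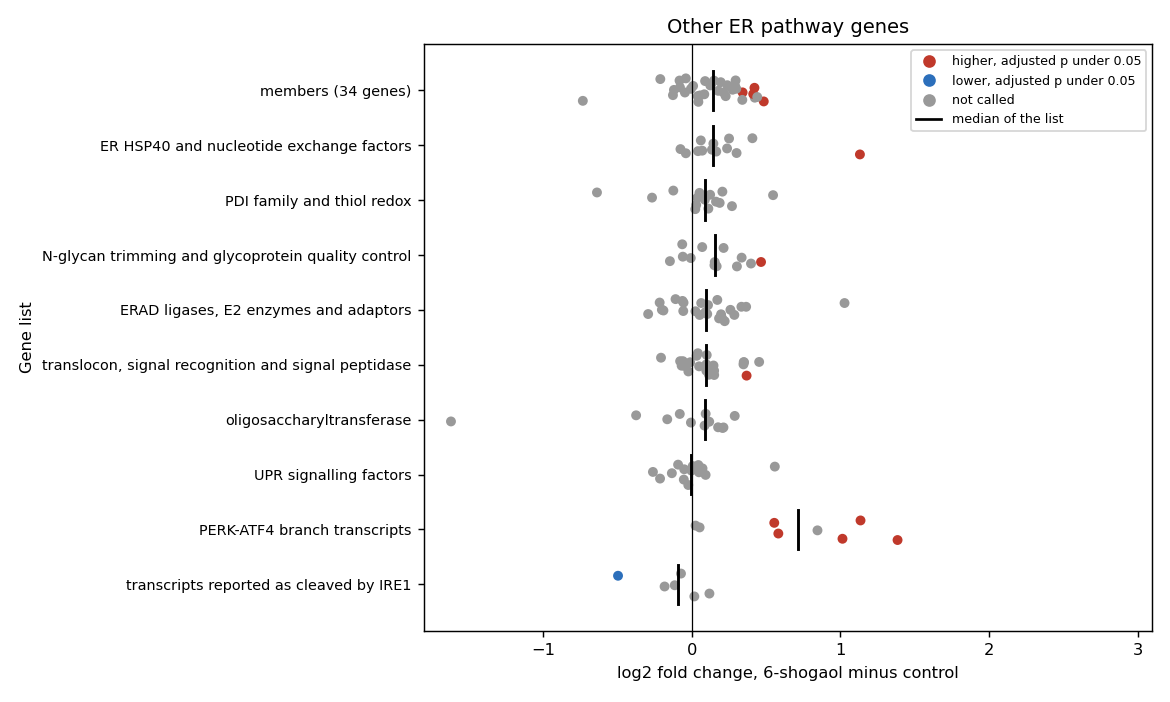
Each point is the log2 fold change (x axis) of a tested gene in the 34-gene set (top) or in one of the other ER lists, coloured by its call, and the black bar is the list's median. Medians lie between -0.09 and 0.16 for all lists but the PERK-ATF4 branch, whose median is 0.72.

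Of 15 tested UPR signalling factors, edgeR called 0, as did DESeq2. At an unadjusted p under 0.05 in edgeR, 0 were higher and 1 lower, against 10.4% and 9.95% of all genes. EIF2AK3, the gene of PERK, was at 23.2, 25.3 and 21.95 CPM in controls and at 23.7, 24.4 and 24.7 CPM with 6-shogaol (log2 fold change 0.05, 95% interval -0.16 to 0.25). The protease gene MBTPS1, whose product cleaves ATF6, had -0.26, and RTCB, the ligase that joins spliced XBP1 mRNA, had -0.21, and neither passed in edgeR with all libraries. Without 6-shogaol replicate 1, MBTPS1 was called lower at -0.40, the 1 call of the list in that fit. Of 8 transcripts listed for the PERK-ATF4 branch, 5 rose (6 without 6-shogaol replicate 1, and 3 or 4 without any of the other 5 libraries). That share rests on genes chosen with earlier results of these libraries known. Counts per gene do not report PERK activity, and whether PERK had a part in these rises was not tested. DDIT3 (CHOP), which is known to act on ERO1A, went from 25.1, 26.7 and 24.7 to 36.9, 41.4 and 34.2 CPM (log2 fold change 0.56 with SE 0.10, edgeR adjusted p = 0.0324), with 31.6% of its exon length shared with genes on the opposite strand. TRIB3, a pseudokinase induced by CHOP, went from 26.0, 35.6 and 35.6 to 83.3, 92.0 and 78.7 CPM (log2 fold change 1.39 with SE 0.14, edgeR adjusted p = 0.00703), and CHAC1, a glutathione-degrading enzyme, had 1.14 (edgeR adjusted p = 0.00209). ATF4 itself had 0.03 (95% interval -0.67 to 0.72), with 86.5 CPM in control replicate 3 against 42.1 and 38.7 CPM in the other controls.

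Of 6 transcripts reported in other systems as substrates of the IRE1 ribonuclease, 1 fell, the scavenger receptor gene SCARA3. It was at 91.6, 100.5 and 97.0 CPM in controls and at 74.4, 68.2 and 62.6 CPM with 6-shogaol, with no overlap (log2 fold change -0.49, SE 0.08, edgeR adjusted p = 0.0324). BLOC1S1 was in this list and was not called, and SPARC had -0.18 (edgeR adjusted p = 0.101). Of the 6 values, 4 were below 0 and 2 above, with a median of -0.09. DDIT3, LMAN1, HSPA13 and SCARA3 each kept a call in only 1 of the 6 fits without a library, the fit without 6-shogaol replicate 1.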

How the data were processed

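The 6 libraries were grouped by their titles. Per the labels' protocols, Trizol was used for total RNA and a SMARTER mRNA-Seq kit for the libraries. The sources used here do not give the aligner, the counting tool or whether counting used strand. The submitters' processing notes name the mouse builds GRCm38 and mm10, but all 60612 identifiers are human Ensembl genes, and all 34 members overlap the same gene in GENCODE release 29 on GRCh38. The authors deposited raw counts per gene, not normalized, and FPKM values, per the file headers. The counts were deposited a second time, with 0 differing values.

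The test on counts used edgeR 4.0.16 under R 4.3.3 (filterByExpr, TMM, glmQLFit, glmQLFTest, Benjamini-Hochberg over 19279 genes, threshold 0.05). Standard errors were derived from the fold change and the F statistic, and intervals use edgeR's total degrees of freedom. CPM are TMM-scaled. A count of 0 allows between 0.0500 and 0.0689 CPM, depending on the library (3 counts, counting error only). Replicates differed by more than sampling noise, with chi-square over its degrees of freedom between 34.4 and 70.8. In simulated counts with these means, dispersions and library sizes over 19279 genes, edgeR recovered 14% of genes changed 1.5-fold and 74% at 2-fold, with 10 false calls among 152. The changed genes were drawn only from well-counted genes of the whole table. Alternatives were other scalings, filters and DESeq2 1.42.0, limma 3.58.1 on log2(FPKM + 1) or log2(FPKM + 0.1), a replicate block, and leaving out each library.

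The members, the other lists and the tests were chosen with earlier results of these data known. All called members, the member with the largest change per role, and the 2 genes with the largest change at a mean of at least 5 CPM per other list were to be named, with HSPA5, DDIT3, ATF4 and EIF2AK3. A gene that this rule names is not reported here. CDNF and others beyond this rule were named after their values were seen. Exon overlap was computed in GENCODE 29 with neighbours averaging 10 counts or more.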

Additional observations from a re-analysis of the deposited data

How the results depend on the processing

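Results were recomputed under 15 alternatives. Of 507 values for the 34 genes, 454 kept their direction and side of the threshold, 29 lost a call, 7 gained one and 17 changed sign. The 4 genes called higher became 1 with no filter on low counts and 1 in limma on log2(FPKM + 1) with no filter, and 0 to 6 without 1 library. The 0 genes called lower became 1 in DESeq2 and 0 to 1 without 1 library. The 651 calls among all genes became 1573 in DESeq2, 378 with no filter, 276 in limma with no filter and 98 to 1012 without 1 library. Of the other pathway genes, the 8 higher became 14 in DESeq2 and 3 to 13 without 1 library, and the 1 lower became 0 in limma with no filter and 0 to 2 without 1 library. The cause was not tested. Deviations from the group means correlated at -0.03, 0.06 and -0.04 between same-numbered libraries, and at -0.06 to 0.09 between other-numbered ones. With 3 libraries a group, these values cannot show whether a number marks a shared culture or day. With the replicate block, 0 of the 34 genes were called higher, 0 of the other pathway genes in either direction, and 3 genes in all.

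Sign changes were seen in genes that were not called. HYOU1 was 0.016 in each of the 3 limma fits, 0.03 without control replicate 3 or 6-shogaol replicate 3, and 0.01 without 6-shogaol replicate 2. SYVN1 was -0.00021 with upper-quartile factors and -0.0083 with the replicate block. Without 1 library, HYOU1 ranged from -0.059 to 0.032, SDF2L1 from -0.32 to 0.057, CRELD2 from -0.055 to 0.15, OS9 from -0.11 to 0.026, SYVN1 from -0.072 to 0.16, SEC61B from -0.012 to 0.15, ATF4 from -0.18 to 0.49 and EIF2AK3 from -0.00096 to 0.10. With 3 libraries a group, changes of 1.5-fold were mostly missed in simulated counts of well-counted genes from the whole table. That share does not describe the 34 genes, of which 4 were called at 1.27-fold to 1.40-fold. A gene that did not pass is not shown to be unchanged, and its 95% interval gives the range allowed. On the log2 scale that range was -0.17 to 0.16 for HYOU1 and -0.17 to 0.08 for PDIA4, but 0.004 to 0.85 for XBP1.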

Other observations

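Among the markers used to check the cell line, GFAP, the intermediate filament of astrocytes, fell with 6-shogaol from 2.03 to 0.664 FPKM (log2 fold change -1.62, edgeR adjusted p = 0.00655). GFAP shares 18.4% of its exon length with genes on the opposite strand. NES, the filament of neural progenitors, fell from 116 to 88.4 FPKM (log2 fold change -0.42, edgeR adjusted p = 0.0484), just under the threshold. Fits under the alternatives are not given for these markers. VIM, the most abundant of these filaments, had 0.05 and SOX2 -0.33, and neither passed. The endothelial cadherin gene CDH5, at 0.322 FPKM in controls, also fell (log2 fold change -1.77, edgeR adjusted p = 0.0192). The bearing of these changes on the ER genes was not tested.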
